A study of Danio rerio with 10 samples.

Results

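Activated microglia taken from zebrafish brains after 48 h of metronidazole (MTZ) were compared with those taken after 24 h, using the 2 libraries deposited for each time (48 h samples 4 and 8, 24 h samples 3 and 7), which are 4 of the 10 samples of the series. The samples were chosen by their labelled treatment and time. All fish were 3 months old and carried Neuro:NTR-mCherry and mpeg1:GFP. DMSO-treated control microglia (samples 1 and 5) carried the same transgenes and are given last, as a further level. Nitroreductase (NTR) turns MTZ into a product that kills the cell that holds it, here, going by the name of the transgene, neurons, while mpeg1 drives GFP in macrophages as well as microglia. Cells were released with trypsin on ice, enriched on Percoll and sorted on GFP, so a macrophage that entered the brain would be sorted with the microglia. The labels do not say whether the samples came from separate animals, and p-values therefore measure only the spread between these libraries.

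Microglia are the resident macrophages of the brain. They take up dying cells and debris, digest them in lysosomes, release cytokines and chemokines, and can divide after an injury. A dividing cell copies its DNA with one set of proteins (helicase, polymerases, clamp) and later separates the copies with another (mitotic kinases and cyclins, spindle motors, kinetochore proteins, condensin), and these sets peak at different phases of the cell cycle.

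The deposited values are a read signal per gene scaled by the authors, in which a constant of 0.223 stands for 0 reads. The 48 h libraries held 9325194 and 11497062 reads over genes, the 24 h libraries 12815571 and 8600052, and the control libraries 6900171 and 6897191. The column labelled control sample 9 held the same value as 24 h sample 3 in all 21756 genes, and it was left out. The shared values were taken as 24 h, and which label is right was not tested. The Spearman correlation of sample 3 over 18701 genes was 0.961 with 24 h sample 7, against 0.852 and 0.899 with control samples 1 and 5. 48 h sample 8 stood apart from the others. Its Spearman correlation over 18701 genes was 0.878 with 48 h sample 4, 0.876 with 24 h sample 3 and 0.882 with 24 h sample 7, against 0.961 between 48 h sample 4 and 24 h sample 3. Among the 7072 genes with a mean signal of at least 20, 32.8% differed by more than 1 on the log2 scale between the 48 h libraries, against 2.69% between the 24 h libraries. Sample 8 also had 2974 genes at the constant, against 1516 in sample 4 and 1322 and 1306 in the 24 h libraries, and its mitochondrial transcripts made up 1.7% of reads, against 5.58% in sample 4 and 4.37% and 2.87% at 24 h. Because of this spread, the values of both 48 h libraries are given separately throughout.

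The sorted cells carried the markers of microglia at both times. The macrophage gene mpeg1.1 had a signal of 4454 and 6047 at 48 h, against 2103 and 2469 at 24 h, with 2545 and 2734 in control microglia, while the sorted GFP-negative brain cells had 2.67 to 5.74. Because the sort was on GFP driven by mpeg1, the contrast of this gene with the GFP-negative cells was set by the sort. The summed signal of the 44 microglia core genes in the file was 106022 and 175354 at 48 h, 59294 and 62606 at 24 h, and 1025 to 1588 in the GFP-negative cells. A single gene, apoeb, supplied 55583 and 101048 of the 48 h sums and 21274 and 26111 of the 24 h sums. Of the 43 core genes tested, 24 overlapped between the times. Markers of other cells were mixed. The neuron gene elavl3 had 7.43 and 2.48 at 48 h and 5.65 and 7.01 at 24 h, against at least 323 in the GFP-negative cells. The endothelial gene cdh5 and the erythrocyte gene slc4a1a had 0 reads in both 48 h libraries, and the neutrophil gene mpx had at most 2 reads there. Other genes of the same lists were present. The neuron gene stmn2a had 17.9 and 30.4 at 48 h and 23.5 and 17.1 at 24 h, against at least 146 in the GFP-negative cells. The neuron gene snap25a had 17 and 31.7 at 48 h and 17 and 19.7 at 24 h, against at least 648 there. The erythrocyte gene ba1 had 52 and 42 reads at 48 h and 183 and 86 at 24 h. Reads of hbaa1 numbered 33 and 75 at 48 h and 168 and 70 at 24 h. The endothelial gene tie1 had 53.2 and 38.2 at 48 h, against 25.5 and 34.2 at 24 h, with at most 1.16 in the GFP-negative cells, and the neutrophil receptor gene csf3r had 63.1 and 8.24 at 48 h, against 87.2 and 52.9 at 24 h, with at most 2.89 in the GFP-negative cells. The 22 endothelial and mural genes in the file summed to 2347 and 1529 at 48 h, 1643 and 1434 at 24 h, and 172 to 204 in the GFP-negative cells. This sum was higher in the sorted microglia, but the list was not higher throughout. Of the 22 genes, 15 and 10 had at least 3 reads at 48 h and 17 and 13 at 24 h, against 17 to 20 in the GFP-negative cells. The signal of cdh5 was at most 0.691 at 24 h, against at least 2.90 in the GFP-negative cells.

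No gene passed the test between the times. limma on log2(signal + 1), with the controls sharing the estimate of the spread, called 0 of 18701 genes at an adjusted p under 0.05 in either direction (0% each), with 0.903 as the smallest adjusted p. At an unadjusted p under 0.05, 438 genes (2.34%) were higher and 362 (1.94%) lower at 48 h. In 2923 genes (15.6%) both 48 h libraries lay above both 24 h libraries, and in 3402 genes (18.2%) both lay below. Among the genes with a mean of at least 20 these shares were 20.4% and 12.9%. These shares depend on the scaling, since scaling by the total reads of each library gave 1613 genes above (8.63%) and 5351 below (28.6%), and quantile normalization gave 16.8% above and 15.8% below. Leaving out a library changed this in 2 cases, each with a lone library assumed to vary like the other groups. Without 48 h sample 4, which leaves sample 8 alone, 900 genes were called higher and 694 lower. Without 24 h sample 3, 1 gene was called higher, si:ch211-160d14.12, with 2532 and 5069 at 48 h, against 547 and 1.04 at 24 h, with 2153 and 3820 in controls. Without 48 h sample 8, 0 genes were called. All differences below are 48 h minus 24 h on the log2(signal + 1) scale with the SE of the fit, all have an adjusted p of at least 0.903, and none is called. With 2 libraries against 2, an exact permutation test of a single gene cannot give a two-sided p below 0.333. The gene groups are lists that were chosen with earlier results of these data known, and they are described by counts and medians. In bulk RNA from sorted cells, fewer cells of a type and less RNA per cell cannot be told apart.

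The authors' deposited table, which states its fold change as 24 h over 48 h so that a negative value means higher at 48 h, lists 6 of 21756 genes at an FDR under 0.05 (0.0276%), all higher at 48 h. The selenium-carrying plasma protein gene sepp1a had a signal of 964 and 1002 at 48 h, against 135 and 213 at 24 h, with 226 and 200.2 in controls. The 48 h libraries lay close together for this gene, and the 24 h libraries lay near the controls. Its difference was 2.53 ± 0.34, and the authors' deposited table gives a log2 fold change of -2.50 with an FDR of 0.0371.

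Of the other genes in that table, 3 act in division. The spindle midzone crosslinker gene prc1b had 55.3 and 203 at 48 h, against 10.7 and 8.07 at 24 h, with 5.01 and 4.49 in controls (3.38 ± 0.59). The spindle motor gene kifc1 had 43.9 and 60.1 at 48 h, against 6.43 and 7.36 at 24 h, with 10.7 and 4.03 in controls (2.73 ± 0.50). For these genes the authors' deposited table gives -3.81 with an FDR of 0.00322 for prc1b and -2.96 with 0.0288 for kifc1. The gene ube2c encodes the ubiquitin-conjugating enzyme that works with the anaphase-promoting complex. It had 32.8 and 116 at 48 h, against 6.50 and 5.61 at 24 h, with 17.1 and 11.79 in controls (3.16 ± 0.59), and the authors' deposited table gives -3.67 with an FDR of 0.0311. The symbol ube2c stands on more than 1 row of the file, and the values are those of ENSDARG00000035770.

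The remaining genes of that table have no link to division that the files give. The uncharacterised zgc:194627 had 47.1 and 98.0 at 48 h, against 8.13 and 7.95 at 24 h, with 9.96 and 12.25 in controls (2.93 ± 0.44), with -3.21 and an FDR of 0.00322 in the authors' deposited table. The secreted serpin gene serpinf1 was at a low level, with 32 and 47 reads at 48 h, against 0 and 0 at 24 h, with 9 and 26 in controls. Measured against a floor of 3 reads per 24 h library, its mean was at least 16.4-fold higher at 48 h, and the authors' deposited table gives -8.42 with an FDR of 0.0297. It lies under the mean of 20 used to choose named genes and was added after its values were seen.

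**Figure D1:**
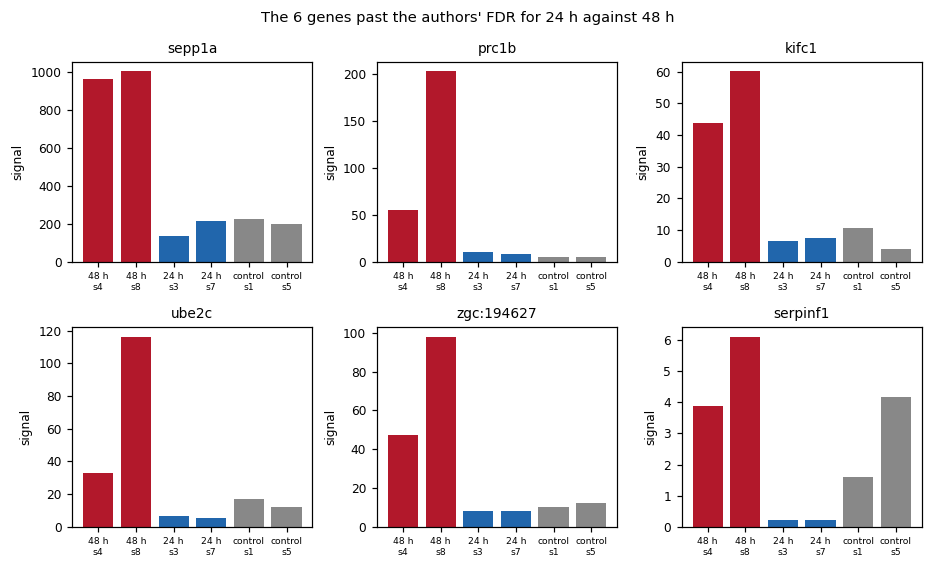
Signal of the 6 genes under an FDR of 0.05 in the authors' deposited table, as bars for each library (48 h samples 4 and 8, 24 h samples 3 and 7, control samples 1 and 5), each panel with its own linear axis from 0. In all 6 panels both 48 h bars stand above both 24 h bars, and for sepp1a they reach 964 and 1002, against 135 and 213 at 24 h.

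By median difference, the genes of mitosis were the highest of the 42 lists at 48 h. Of its 72 genes tested, both 48 h libraries lay above both 24 h libraries in 60 (83.3%, against 15.6% of all genes), below in 0, and 12 overlapped. The median difference over the 72 was 1.59, against -0.04 over all genes tested, and 50 genes were higher at an unadjusted p under 0.05, with 0 lower. Set against the 24 h mean one library at a time, the median was 1.41 in sample 4 and 1.76 in sample 8, and the difference was positive in all 72 genes in sample 4 and in 66 in sample 8. The summed signal of the 72 genes was 2605 and 3616 at 48 h, against 1191 and 865 at 24 h, with 558 and 465 in controls. Against both 24 h libraries, 68 of the 72 genes were above in sample 4 taken alone (34.7% of all genes) and 63 in sample 8 taken alone (40.4% of all genes). The 24 h libraries differed from each other as well, with sample 3 above sample 7 by a median of 0.54. Scaled by library total, 56 of the 72 were above (77.8%, against 8.63% of all genes) and 0 below.

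**Figure D2:**
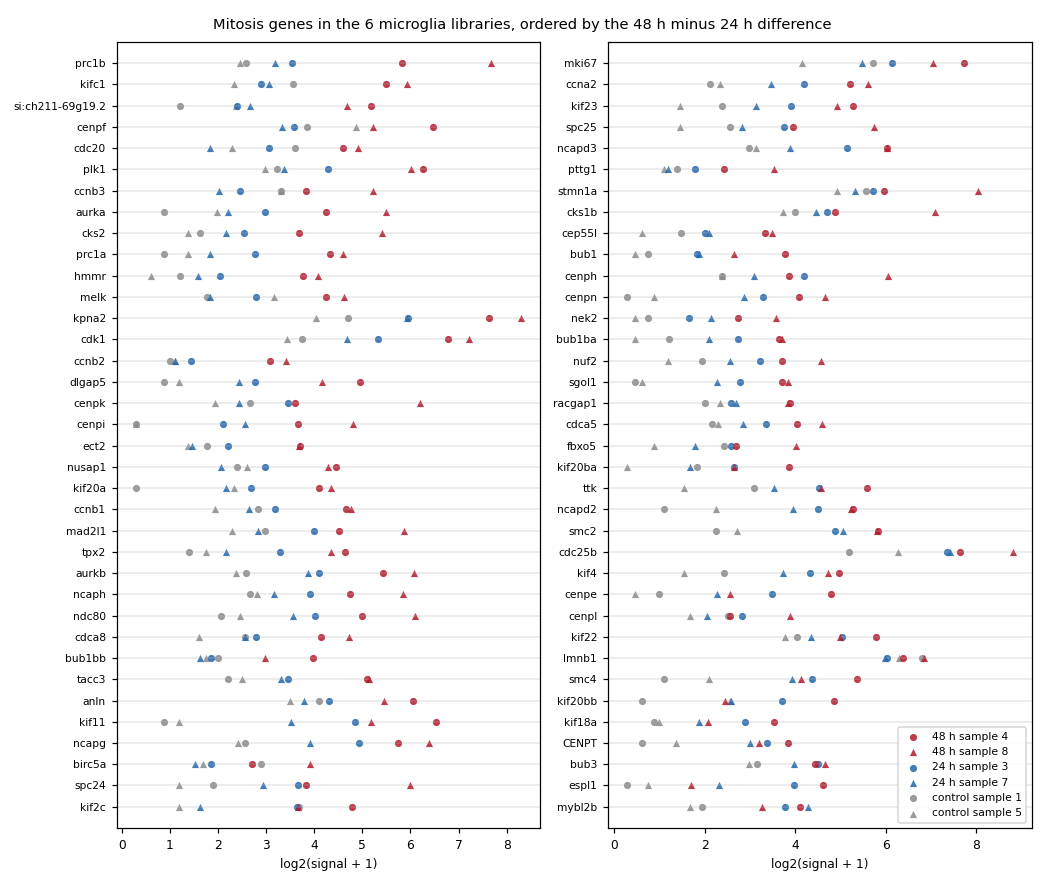
Signal of each of the 72 mitosis genes tested, on a log2(signal + 1) axis, with a point for each library: 48 h samples 4 and 8 in red, 24 h samples 3 and 7 in blue and control samples 1 and 5 in grey. Genes are ordered by the 48 h minus 24 h difference, from prc1b at 3.38 to mybl2b at -0.34, and in 60 of them both red points lie to the right of both blue points.

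All 15 kinases, cyclins and their partners had both 48 h libraries above both 24 h libraries, against 15.6% of all genes. Their differences ran from 0.83 (cdc25b) to 2.31 (plk1), with a median of 1.80. The roles used here were assigned to the list after its values were seen, and they leave out some of its 72 genes. The gene cdk1, for the kinase that drives entry into mitosis, had 108 and 148 at 48 h, against 38.9 and 24.7 at 24 h, with 12.4 and 9.81 in controls (2.00 ± 0.38). The polo-like kinase gene plk1 had 76.1 and 63.1 at 48 h, against 18.5 and 9.35 at 24 h, with 8.41 and 6.92 in controls (2.31 ± 0.43). Polo-like kinase acts from centrosome maturation to cytokinesis. Among the cyclins that bind Cdk1, ccnb1 had 24.5 and 26.1 at 48 h, against 8.05 and 5.26 at 24 h. The Aurora B gene aurkb, for the kinase of the chromosomal passenger complex, had 41.8 and 66.5 at 48 h, against 16.04 and 13.7 at 24 h.

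The spindle motors and microtubule binders numbered 19, with a median of 1.68. Of these, 14 had both 48 h libraries above both 24 h libraries, against 15.6% of all genes, and 5 overlapped. The gene stmn1a, which encodes a microtubule destabiliser and was chosen after its values were seen, had 61.3 and 261 at 48 h, against 51.8 and 39 at 24 h (1.47 ± 0.63). The libraries of 48 h differed much more for this gene than for most of the list. The bipolar kinesin gene kif11 had 91.9 and 35.16 at 48 h, against 27.8 and 10.4 at 24 h, with 0.841 and 1.29 in controls (1.68 ± 0.62). The overlapping members were kif18a, kif20ba, kif20bb, kif22 and cenpe, and in each of these sample 4 was above both 24 h libraries while sample 8 was not.

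Of 16 kinetochore and checkpoint genes, 12 had both 48 h libraries above both 24 h libraries, against 15.6% of all genes, with a median of 1.43. The kinetochore gene cenpf had 87.7 and 36.4 at 48 h, against 11 and 9.00 at 24 h, with 13.5 and 28.1 in controls (2.39 ± 0.53). The control libraries thus lay above the 24 h libraries for cenpf. The checkpoint gene mad2l1 had 21.7 and 57.7 at 48 h, against 14.9 and 6.08 at 24 h. All 6 passenger complex and cytokinesis genes were above, with differences of 1.23 (racgap1) to 1.86 (ect2). So were 7 of the 9 genes of condensin, cohesin regulation and separase, again against 15.6% of all genes. The contractile ring scaffold gene anln had 65.6 and 42.9 at 48 h, against 18.8 and 12.7 at 24 h (1.71 ± 0.42). Separase (espl1) was among the genes that overlapped, with 23.55 and 2.23 at 48 h and 14.6 and 3.97 at 24 h.

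The proliferation marker mki67 had 212 and 131 at 48 h, against 69.7 and 43.3 at 24 h, with 51.5 and 16.7 in controls (1.58 ± 0.55). The nuclear import receptor gene kpna2 had 197 and 315 at 48 h, against 60.5 and 59.8 at 24 h, with 24.9 and 15.4 in controls (2.03 ± 0.38). Every 48 h value of these genes was higher than every 24 h and control value. A single list member had a negative difference, the transcription factor gene mybl2b, with 16.3 and 8.61 at 48 h and 12.6 and 18.5 at 24 h (-0.34 ± 0.48).

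The genes of DNA replication were mixed, and their count depended on the libraries used. Of 63 tested, both 48 h libraries lay above both 24 h libraries in 9 (14.3%) and below in 5 (7.94%), which lies under the background of 15.6% and 18.2%, and the median difference was 0.20. Without 24 h sample 3, 28 were above (44.4%, against 25.7% of all genes) and 5 below (7.94%, against 28.5%), with a median of 0.53. Without 24 h sample 7, 11 were above (17.5%, against 25% of all genes) and 15 below (23.8%, against 30.2%). The 48 h libraries went opposite ways here under the deposited scaling, with a median of -0.09 in sample 4 and 0.67 in sample 8. The summed signal was 3159 and 5024 at 48 h, against 3745 and 2887 at 24 h, with 881 and 981 in controls, so both times lay above the controls while the times overlapped. The sliding clamp gene pcna had 298 and 368 at 48 h, against 518 and 329 at 24 h, with 122 and 135 in controls (-0.32 ± 0.35). The helicase subunit gene mcm2 had 178 and 116 at 48 h, against 199 and 172 at 24 h, with 7.49 and 13.5 in controls (-0.36 ± 0.39). Neither gene had both 48 h libraries above both 24 h libraries, and for mcm2 the sample 4 value lay between the 24 h values. The exception with the largest difference was top2a, for the topoisomerase that untangles DNA both in replication and in mitosis, with 132 and 67.6 at 48 h, against 38.8 and 18.6 at 24 h, with 9.96 and 7.99 in controls (1.77 ± 0.48). Whether the mitosis and replication lists differ in their change was not tested.

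Genes of the G1 cyclins and the Rb pathway were mixed, with 9 of 31 above (29.0%, against 15.6% of all genes) and 8 below (25.8%, against 18.2%). The growth regulator gene myca had 25.6 and 36.9 at 48 h, against 66.7 and 78.2 at 24 h, with 20.2 and 29.7 in controls (-1.20 ± 0.37). Its 48 h level thus lay near the controls. The cyclin-dependent kinase gene cdk2 had 48.4 and 168 at 48 h, against 45.3 and 38.4 at 24 h, with 10.3 and 14.8 in controls (1.1 ± 0.56).

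Several genes of microglia identity were higher at 48 h in both libraries. Of 43 microglia core genes, 13 were above (30.2%) and 6 below (14.0%), with a median of 0.21. The shares were 15.6% and 18.2% of all genes, and 20.4% and 12.9% of genes with a mean of at least 20. Scaled by library total, 7 were above (16.3%, against 8.63% of all genes) and 6 below (14.0%, against 28.6%). Apolipoprotein Eb (apoeb), a lipid carrier that marks zebrafish microglia, had 55583 and 101048 at 48 h, against 21274 and 26111 at 24 h, with 19552 and 22597 in controls (1.67 ± 0.69). It was the most abundant gene in the 48 h libraries, where it took 5.21% and 7.02% of reads, against 2.14% and 2.59% at 24 h. The difference of mpeg1.1, whose values are given above, was 1.19 ± 0.42, and both 48 h values lay above those of the 24 h and control libraries. The actin-bundling protein gene lcp1 had 4840 and 7409 at 48 h, against 2590 and 2828 at 24 h, with 562 and 722 in controls (1.15 ± 0.41).

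The complement C1q genes, which encode the chains that tag debris and synapses for uptake, were carried mainly by sample 8. The chain gene c1qb had 1182 and 3943 at 48 h, against 648 and 1017 at 24 h, with 688 and 669 in controls (1.41 ± 0.57). The other chain genes overlapped between the times. The gene c1qa had 283 and 855 at 48 h, against 218 and 308 at 24 h, and c1qc had 988 and 2584 at 48 h, against 652 and 1063 at 24 h.

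Other identity genes were level or lower. The receptor gene csf1ra, whose ligand keeps microglia alive, had 462 and 199 at 48 h and 506 and 352 at 24 h, with 173 and 178 in controls (-0.47 ± 0.44). The purinergic receptor gene p2ry12 had 64.4 and 42.3 at 48 h and 57.7 and 57.8 at 24 h (-0.14 ± 0.36). Neither gene separated the times. The microglia marker spi1b was lower in both 48 h libraries, with 521 and 424, against 588 and 575 at 24 h. Its control values were 492 and 644, and its difference was -0.31 ± 0.33. The gene aif1l, a relative of the actin-binding microglia gene aif1, had 10.9 and 3.103 at 48 h, against 35.4 and 29.1 at 24 h, with 159 and 210 in controls (-2.25 ± 0.51), so that it was lowest at 48 h and highest in the controls.

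Among lysosomal hydrolases and membrane proteins, 22 of 79 genes were above (27.8%) and 9 below (11.4%), with a median of 0.21. The shares were 15.6% and 18.2% of all genes, and 20.4% and 12.9% of genes with a mean of at least 20. Scaled by library total, 13 were above (16.5%, against 8.63% of all genes) and 14 below (17.7%, against 28.6%). The protease gene ctsk had 241 and 649 at 48 h, against 107 and 123 at 24 h, with 193 and 166 in controls (1.78 ± 0.47). The ceramidase gene asah1b had 717 and 1675 at 48 h, against 444 and 527 at 24 h (1.18 ± 0.45), and was chosen after its values were seen. Both lay above the controls at 48 h in sample 8, and ctsk did so in sample 4 too. Of 15 genes of class II antigen presentation, 4 were above (26.7%, against 15.6% of all genes) and 2 below (13.3%, against 18.2%). The gene ifi30, for a lysosomal thiol reductase, had 764 and 1205 at 48 h, against 462 and 394 at 24 h, with 1390 and 1124 in controls (1.17 ± 0.37).

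Antioxidant genes of the Nrf2 list had 11 of 38 members above (28.9%, against 15.6% of all genes) and 4 below (10.5%, against 18.2%). In sample 4 taken alone, however, 13 were above (34.2%, against 34.7% of all genes) and 17 below (44.7%, against 36.8%). Scaling by the total reads of each library shifted the median of all genes to -0.29 and turned the medians of the microglia core (-0.10), lysosomal (-0.09), Nrf2 (-0.06) and DNA replication (-0.09) lists negative, which still lie above that median. The G1 list, with a median of 0.06, turned to -0.24 under that scaling and to -0.06 under quantile normalization. Catalase (cat), which breaks down hydrogen peroxide, had 93.5 and 173 at 48 h, against 48.9 and 45.8 at 24 h, with 47.8 and 43.9 in controls (1.41 ± 0.37). The control and 24 h values of this gene lay within a narrow range. Other genes without overlap included pycard, the inflammasome adaptor, with 291 and 1479 at 48 h, against 187 and 196 at 24 h, with 188 and 179 in controls (1.77 ± 0.66). They also included scinla, for an actin-severing protein, with 126 and 128 at 48 h, against 50.5 and 33.0 at 24 h, with 22.6 and 23.5 in controls (1.61 ± 0.34).

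Several signalling molecules of inflammation were lower at 48 h. Of 54 inflammatory mediators tested, 16 were below (29.6%, against 18.2% of all genes) and 9 above (16.7%), with a median of -0.19. In sample 8 taken alone 25 lay below both 24 h libraries, a share of 46.3% that is near the 45.5% of all genes, and in sample 4 taken alone 29 did (53.7%, against 36.8% of all genes). The cyclooxygenase gene ptgs2a, whose product makes prostaglandins, had 6.28 and 1.60 at 48 h, against 30.5 and 19.3 at 24 h, with 16.4 and 9.20 in controls (-2.54 ± 0.59). The gene irg1, for the enzyme that makes itaconate, had 16.2 and 27.5 at 48 h, against 66.8 and 48.6 at 24 h, with 22.5 and 26.6 in controls (-1.39 ± 0.39). The cytokine gene il1b had 254 and 155 at 48 h, against 312 and 366 at 24 h, with 319 and 218 in controls (-0.77 ± 0.37). For ptgs2a both 48 h values lay below those of every 24 h and control library, whereas for il1b the sample 4 value lay within the control range.

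The list also held members that were higher. Among members with a mean of at least 5, pycard, whose values are given above, had the largest positive difference (1.77 ± 0.66). The TNF family ligand gene tnfsf10 had 34.4 and 65.0 at 48 h, against 19.8 and 11.46 at 24 h, with 48.0 and 27.8 in controls (1.58 ± 0.48), and was chosen after its values were seen. In the other direction, the granulocyte growth factor gene csf3a, also chosen after its values were seen, had 17.6 and 7.74 at 48 h, against 34.9 and 36.6 at 24 h, with 24.0 and 17.4 in controls (-1.53 ± 0.45).

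Of 53 chemokine and receptor genes, 11 were below (20.8%) and 6 above (11.3%), close to the background. The chemokine gene ccl34a.4 had 102 and 164 at 48 h, against 633 and 803 at 24 h, with 65.3 and 546 in controls (-2.45 ± 0.84). Its control libraries lay far apart, on either side of the 48 h values and below both 24 h values. The interferon-induced chemokine genes cxcl11.6 and cxcl11.7 were lower as well. The first had 30.8 and 31.4 at 48 h, against 64.0 and 112 at 24 h, with 170 and 197 in controls (-1.42 ± 0.36). The second had 20.9 and 18.4 at 48 h, against 41.9 and 79.6 at 24 h, with 96.2 and 129 in controls (-1.51 ± 0.40). These belong to a family of similar copies between which the counting could split reads, so their values are uncertain. In the opposite direction, ccl34b.1, a chemokine gene expressed in zebrafish microglia, had 1810 and 8002 at 48 h, against 1949 and 1352 at 24 h, with 4617 and 3730 in controls (1.23 ± 0.68), and only sample 8 stood above the 24 h libraries.

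**Figure D3:**
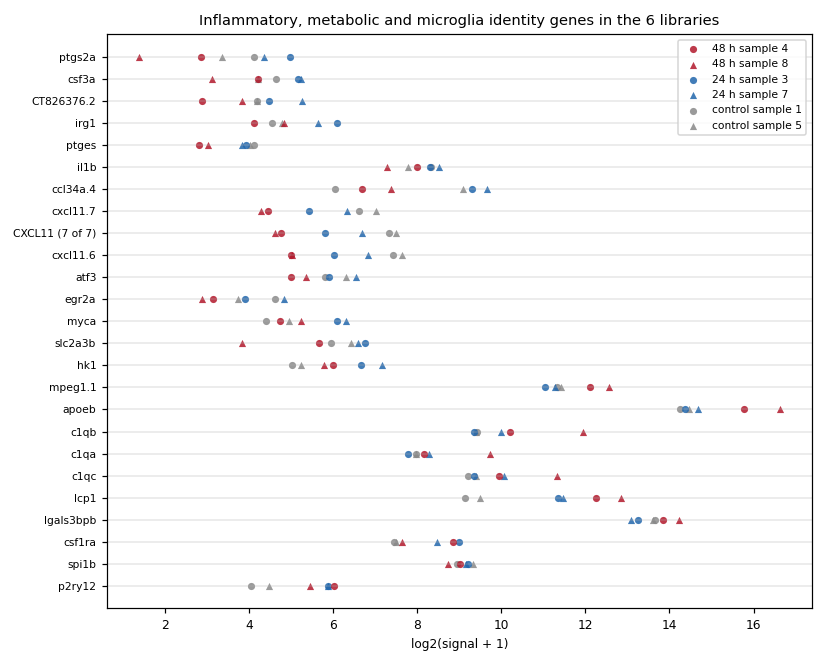
Signal of 25 inflammatory, metabolic and microglia identity genes on a log2(signal + 1) axis, with a point for each library: 48 h samples 4 and 8 in red, 24 h samples 3 and 7 in blue and control samples 1 and 5 in grey. The genes were picked for display after their values were seen. Both red points lie left of both blue points from ptgs2a to hk1 and for spi1b. Both red points lie right of both blue points for mpeg1.1, apoeb, c1qb, lcp1 and lgals3bpb. CT826376.2 is the identifier that the gene name table pairs with cxcl8a.

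Among immediate early genes, 15 of 47 were below (31.9%, against 18.2% of all genes) and 3 above (6.38%, against 15.6%), with medians of -0.07 in sample 4 and -0.50 in sample 8. These genes respond within minutes to a stimulus and to cell dissociation. The transcription factor gene egr2a had 7.77 and 6.36 at 48 h, against 14.0 and 27.4 at 24 h, with 23.7 and 12.25 in controls (-1.36 ± 0.50). The heat shock list had 9 of 23 below (39.13%, against 18.2% of all genes) and 1 above (4.35%, against 15.6%), with a median of -0.45. The chaperone gene hsp90aa1.2 had 62.1 and 53.8 at 48 h, against 118 and 167 at 24 h, with 259 and 112 in controls (-1.27 ± 0.44).

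Many genes of ribosome biogenesis were lower at 48 h. These proteins process and assemble ribosomal RNA in the nucleolus. Of 80 tested, both 48 h libraries lay below both 24 h libraries in 43 (53.8%, against 18.2% of all genes) and above in 1 (1.25%), with a median of -0.42, and the median was -0.50 in sample 4 and -0.35 in sample 8. At an unadjusted p under 0.05, 8 were lower and 0 higher. In sample 4 taken alone, 72 genes lay below both 24 h libraries (36.8% of all genes), and in sample 8 taken alone 50 did (45.5% of all genes). The small-subunit processing gene wdr43 had 118 and 85.4 at 48 h, against 175 and 197 at 24 h, with 87.2 and 96.1 in controls (-0.88 ± 0.32). The 48 h values of this gene thus lay near the controls. The gene sdad1, for a factor of large-subunit assembly in yeast, had 32.6 and 25.02 at 48 h, against 68.0 and 68.9 at 24 h, with 30.4 and 51.7 in controls (-1.23 ± 0.37). The rRNA methyltransferase gene ftsj3 had the largest negative difference of the members with a mean of at least 5, with 30.2 and 0.849 at 48 h and 37.2 and 37.3 at 24 h (-2.33 ± 1.17), and this difference came from sample 8. The genes wdr43 and sdad1 were chosen after their values were seen.

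Of 28 chaperonin and cytosolic chaperone genes, 14 were below (50%, against 18.2% of all genes) and 1 above (3.57%, against 15.6%). In sample 8 taken alone 15 lay below both 24 h libraries (53.6%, against 45.5% of all genes). In sample 4 taken alone 23 did (82.1%, against 36.8%). The chaperone gene hspa4a had 43.1 and 52.95 at 48 h, against 102 and 94.2 at 24 h, with 19.5 and 37.8 in controls (-1.02 ± 0.39). In this list the median was -0.45 in sample 4 and -0.06 in sample 8.

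Genes of glycolysis and the pentose phosphate path had 17 of 46 members below (37.0%, against 18.2% of all genes) and 7 above (15.2%, against 15.6%), with a median of -0.25. In sample 8 taken alone 23 were below both 24 h libraries (50%, near the 45.5% of all genes), and in sample 4 taken alone 26 were (56.5%, against 36.8%). The glucose transporter gene slc2a3b had 49.4 and 13.1 at 48 h, against 106 and 94.9 at 24 h, with 61.0 and 84.7 in controls (-1.93 ± 0.56). The transketolase gene tktb had 311 and 191 at 48 h, against 468 and 437 at 24 h, with 70.5 and 93.8 in controls (-0.89 ± 0.36). The hexokinase gene hk1, the entry enzyme of glycolysis, had 62.7 and 54.3 at 48 h, against 99.5 and 143 at 24 h, with 31.3 and 36.4 in controls (-1.02 ± 0.33), and was chosen after its values were seen. For tktb and hk1 the 24 h libraries were the highest of the 3 groups and the controls the lowest.

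**Figure D4:**
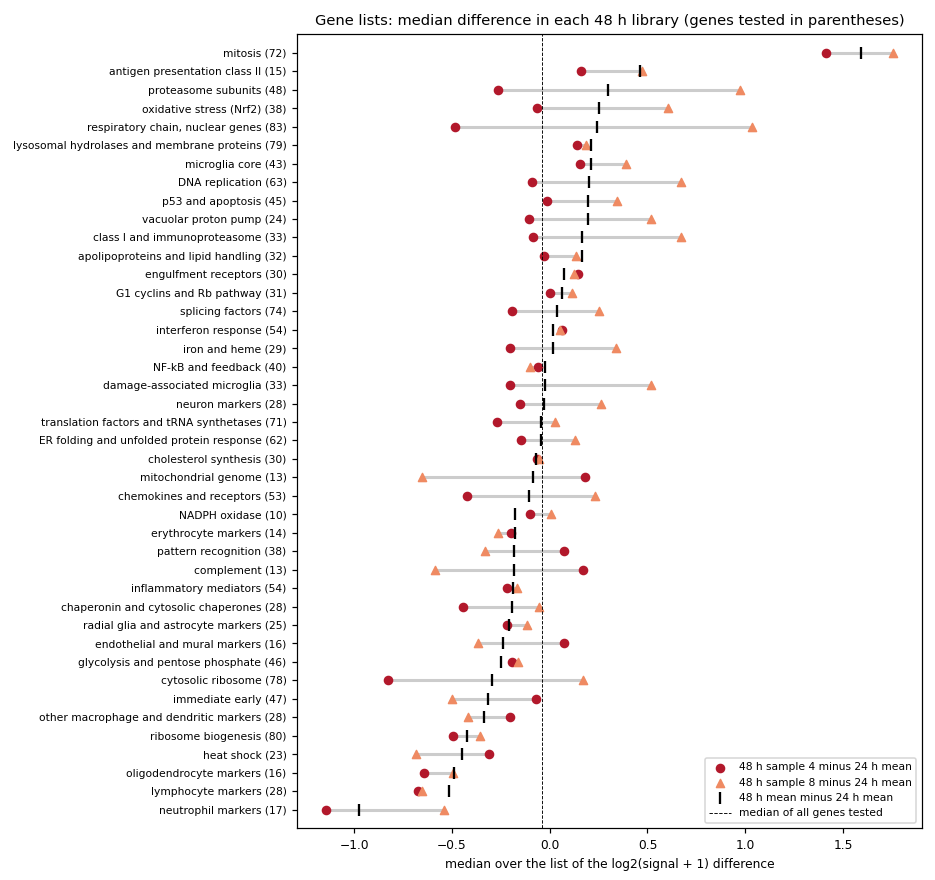
Median difference from the 24 h mean for each of the 42 gene lists, on the log2(signal + 1) scale, in 48 h sample 4 (circles), 48 h sample 8 (triangles) and the 48 h mean (bars), with the number of genes tested in parentheses and the median of all genes tested, -0.04, as a dashed line. Mitosis stands apart on the right in both libraries at 1.41 and 1.76, while the respiratory chain lies on opposite sides of the line, at -0.48 and 1.04.

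Other lists had medians of opposite sign in the 48 h libraries under the deposited scaling. That scaling gave sample 8 a summed signal of 1444667, against 1071065 in sample 4 and 998447 and 1011424 at 24 h. The values of sample 8 thus stand higher for their share of reads than those of the other activated libraries. The signs of these medians were not tested under another scaling. The nuclear genes of the respiratory chain had a median of -0.48 in sample 4 and 1.04 in sample 8. Only 3 of 83 genes were above (3.61%, against 15.6% of all genes) and 4 below (4.82%, against 18.2%). The proteasome subunits had -0.27 in sample 4 and 0.97 in sample 8. Of these 48 genes, 4 were above (8.33%, against 15.6% of all genes) and 2 below (4.17%, against 18.2%). The cytosolic ribosomal proteins had -0.83 in sample 4 and 0.17 in sample 8, with 0 of 78 above and 19 below (24.4%, against 18.2% of all genes). That count depended on the scaling, with 0 above and 47 below (60.3%, against 15.8% of all genes) under quantile normalization and 0 above and 50 below (64.1%, against 28.6%) when scaled by library total. In sample 8 taken alone under the deposited scaling, 39 ribosomal protein genes lay above both 24 h libraries (50%, against 40.4% of all genes). In that library 20 lay below (25.6%, against 45.5%). The subunit gene ndufb8 of respiratory complex I had 124 and 735 at 48 h, against 119 and 145 at 24 h, and the proteasome gene psma2 had 157 and 606 at 48 h, against 125 and 160 at 24 h. In both genes sample 4 lay beside the 24 h libraries and sample 8 far above them.

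**Figure D5:**
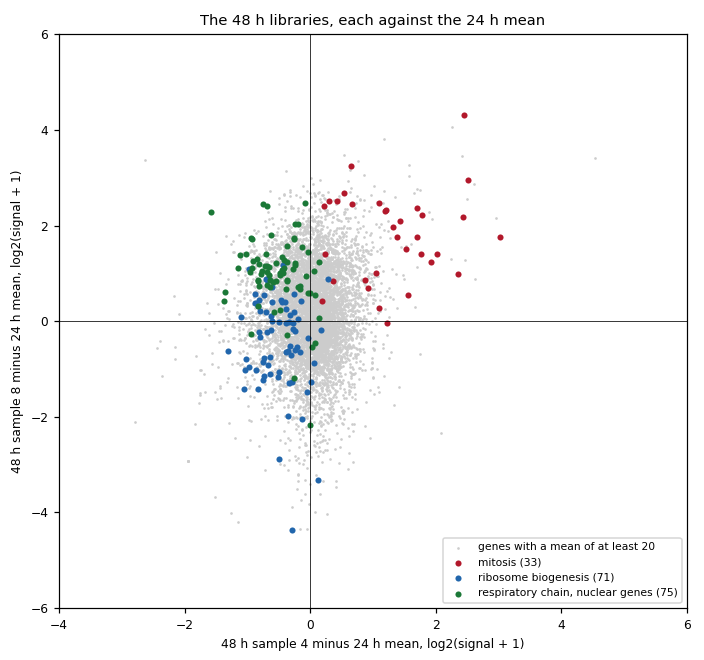
Difference from the 24 h mean in 48 h sample 4 (horizontal) and 48 h sample 8 (vertical), in log2(signal + 1), for the 7072 genes with a mean signal of at least 20, of which 2 lie outside the axes. The 33 mitosis genes that reach this mean lie in the upper right quadrant or on its edge, the 71 ribosome biogenesis genes mostly left of the vertical line, and most of the 75 respiratory chain genes in the upper left quadrant.

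Lists of markers of other cell types held more members below than above at 48 h, with exceptions among single genes. So did all genes, with 18.2% below and 15.6% above, and the neuron list was near this for members below (17.9%). Under quantile normalization the neuron list had 2 of 28 above and 2 below. The radial glia and endothelial lists then had 12% and 12.5% below, under the 15.8% of all genes. The lymphocyte, neutrophil, other macrophage and dendritic, oligodendrocyte and erythrocyte lists stayed above that share. The counts that follow use the deposited scaling. Of 28 lymphocyte markers, 13 were below (46.4%) and 1 above (3.57%), and their summed signal over the 41 genes in the file was 428 and 412 at 48 h, against 464 and 562 at 24 h, with 700 and 579 in controls. Of 17 neutrophil markers, 6 were below and 0 above, with summed signals of 453 and 301 at 48 h, against 619 and 734 at 24 h, with 587 and 614 in controls. Of 28 markers of other macrophages and dendritic cells, 12 were below (42.9%) and 3 above (10.7%), although the summed signal, with 4925 and 10567 at 48 h against 4272 and 4778 at 24 h, was higher. The dendritic cell receptor gene flt3 had 11.4 and 2.85 at 48 h, against 16.9 and 20.47 at 24 h, with 69.8 and 60.04 in controls (-1.50 ± 0.55). The monocyte-linked coagulation factor gene f13a1a.1 had 2.62 and 0.473 at 48 h, against 42.2 and 3.62 at 24 h, with 830 and 307 in controls (-2.61 ± 1.00). Both genes were highest in the controls. Other markers did not fall. The macrophage gene mfap4 had 1291 and 7744 at 48 h, against 1028 and 1583 at 24 h, with 519 and 622 in controls (1.31 ± 0.75). The dendritic marker zbtb46 had 75.6 and 40.7 at 48 h, against 46.0 and 49.6 at 24 h, with 36.7 and 32.6 in controls (0.21 ± 0.38). Both mfap4 and zbtb46 overlapped between the times. The part of such cells in the lower cytokine and chemokine values was not tested.

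Oligodendrocyte markers had 7 of 16 genes below (43.8%, against 18.2% of all genes) and 0 above, and summed signals of 535 and 940 at 48 h, against 681 and 1004 at 24 h, with 2399 and 1293 in controls. The radial glia and astrocyte list had 8 of 25 below (32%, against 18.2% of all genes) and 2 above (8%, against 15.6%). Under quantile normalization that list had 3 below (12%, against 15.8% of all genes) and 1 above (4%, against 16.8%). Its summed signal was set mainly by glula, glutamine synthetase, which had 8438 and 26928 at 48 h, 3045 and 7082 at 24 h, 3603 and 4612 in controls, and 3955 to 6983 in the GFP-negative brain cells, so that glula does not separate microglia from astrocytes in these data.

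Among the genes with no overlap and the smallest unadjusted p that carry only a clone name, si:ch211-194m7.4 had 59.3 and 78.7 at 48 h, against 14.4 and 16.1 at 24 h, with 3.31 and 3.72 in controls (2.09 ± 0.38). In the other direction, si:dkey-77p23.6 had 479 and 244 at 48 h, against 2515 and 1371 at 24 h, with 3851 and 2201 in controls (-2.44 ± 0.51). The genes si:dkeyp-3b12.5, si:dkeyp-3b12.6 and si:dkeyp-3b12.7 had almost the same value as si:dkey-77p23.6 in every library, so the deposited values do not tell them apart and they count as 1 observation. The spliced noncoding RNA gene gas5, a host of small nucleolar RNAs, had 13.3 and 14.5 at 48 h, against 34.3 and 34.7 at 24 h, with 24.0 and 30.4 in controls (-1.26 ± 0.35).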

How the data were processed

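Per the submitters' processing notes, reads (50 bases, single end, SMARTer cDNA) were handled with TopHat2 2.0.5, SAMtools 0.1.18, edgeR and genome build GRCz10; the counting tool and annotation are not given in the sources used here. The deposited signal per gene was scaled by the authors; in each column the values are equal steps above a constant of 0.223, which is why the files could be read as whole reads above 0 (tolerance 0.1 steps). The authors also deposited log2 fold changes and p-values (FDR), used only where named, and per the series' design text they pooled all activated samples in their own analysis.

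Here log2(signal + 1) was fitted with limma 3.58.1 (trend, R 4.3.3) over the 6 microglia libraries, for the 18701 genes with a signal of at least 1 in at least 2 libraries, with Benjamini-Hochberg adjustment over all of them and a threshold of 0.05. The procedure was checked on simulated data. Depth was 6897191 to 12815571 reads over genes per library, and reads without molecular identifiers cover counting error only. Of 2090 entries in 42 gene lists, 1698 matched by the file's symbol, 68 through a gene name table, 309 were unmatched and 15 were ambiguous, and 1684 were tested. Members and lists were chosen with earlier results of these data known. Named genes were the given markers, authors' calls, the genes of smallest p without overlap, the most abundant genes, the extremes of each list and the cell type markers, unless stated otherwise. The genes lcp1, myca, kif11, ccnb1, aurkb, mad2l1, anln, espl1, c1qa and c1qc were not chosen by these rules. They were picked from the lists with earlier results of these data known. Alternatives covered the libraries, pseudocount, filter, scaling, weights, a block and leaving out each library.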

Additional observations from a re-analysis of the deposited data

How the results depend on the processing

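Across the alternatives, the number of genes called higher and lower at 48 h stayed at 0 and 0 in all but 2. Leaving out each library in turn gave 0 to 900 genes higher and 0 to 694 lower, with 900 and 694 without 48 h sample 4 and 1 higher without 24 h sample 3; the cause was not tested. Adding control sample 9 as deposited, fitting only the 4 activated or all 9 distinct libraries, a pseudocount of 0.5 or 5, no filter or a filter at 5, quantile normalization and array weights left 0 calls, with 589 to 854 genes at an unadjusted p under 0.05. So did voom on recovered reads (819) and scaling by library total (881), which were chosen after seeing the data. The planned edgeR, DESeq2 and TMM fits were not run on the deposited values, which are a scaled signal, and voom on the reads recovered from their steps was fitted in their place.

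The labels give the groups no shared replicate numbers. A replicate block of consecutive sample numbers (1 to 4 against 5 to 8) gave 0 calls and a smallest adjusted p of 0.485 in limma, and the deviations from the group means correlated at 0.08 between 48 h and 24 h.

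Of 68 named genes followed through 18 alternatives, 62 kept their sign. This count was partly fixed in advance. Array weights, the block, another filter or other control libraries leave the difference itself unchanged. A gene without overlap between the times cannot change sign when a library is left out, and many of the genes were chosen for having no overlap. The difference of espl1 was -0.02 at a pseudocount of 0.5, -0.14 under voom and -0.21 under library total scaling, and ran from -1.45 to 1.48 when a library was left out. Leaving out a library also gave -0.76 to 0.09 for mybl2b, -0.64 to 0.01 for pcna, -1.08 to 0.13 for csf1ra, -0.44 to 0.15 for p2ry12 and -0.08 to 2.48 for ndufb8.

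The groups hold 2 libraries each, sample 8 differs from the others over much of the transcriptome, and depth limits genes of a few reads, so that a gene not called here is not shown to be level between the times.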
